A study of Mus musculus with 4 samples.

Results

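Derepressed noncoding and predicted genes are described here through 7 of the 56980 genes in the matrices: Gm41804, 1700030N03Rik, Gm11884, Gm42653, 1700108F19Rik, Gm1110 and Gm13274. They were chosen by symbol, on the measured difference between TKO and Ctrl skin cells, so the size of that difference is given as a description with no test. Of the 7, 5 are annotated as long noncoding RNA genes (lncRNA, a transcript with no known protein). Gm42653 is a TEC model, a single-exon transcript whose type is still to be experimentally settled, and Gm1110 is annotated as protein coding, so the word noncoding does not hold for it. No function is stated here for any of the 7 genes, because none is given in the sources used here.

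H3K9me3, trimethylation of lysine 9 on histone H3, marks silent chromatin and is read by HP1 proteins. Suv39h1, Suv39h2 and Setdb1 encode methyltransferases that place it. The mark is best known at pericentromeric repeats and transposable elements, and it also silences genes of other lineages, including many that lie in repeat-rich regions.

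The study profiled Epcam+ α6+ cells, sorted from mouse dorsal skin at E16.5 per the labels, by 3' single-cell RNA-seq with the 10x Genomics v3 kit. The 2 Ctrl libraries came from embryos carrying Suv39h1 f/f, Suv39h2-/- and Setdb1 f/f without Cre (K14CreERT2-), and the 2 TKO (triple knockout) libraries from embryos of the same alleles with K14CreERT2+. All 4 embryos were exposed to Tamoxifen, so both groups shared the drug and the Suv39h2 deletion. K14CreERT2 is a tamoxifen-dependent recombinase driven by a basal keratinocyte promoter, and the study describes recombination in TKO skin as mosaic. Each library was 1 embryo per the study's methods. The p-values below between TKO and Ctrl measure the spread between these 2 embryos per genotype. Those between keratinocyte classes, with the library as a block, measure how class differences vary between embryos, from 12 sums that share 1 estimate. The study's litter list gives a different age for the scRNA-seq litter, and the data do not settle it.

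The files held 3804 to 5785 barcodes and 70749496 to 89655247 UMIs (unique molecular identifiers, 1 per captured molecule) per library. Of 19789 barcodes, 39 sequences occurred in more than 1 library. After filtering, 10764 cells were kept, of which 9180 were keratinocytes by their keratins. The remainder were mostly immune-like (916) and fibroblast-like (514) cells, so the sort labelled basal epithelial was not pure. Median depth was 21960 and 17329 UMIs per keratinocyte in Ctrl replicates 1 and 2, and 30073 and 28052 in TKO replicates 1 and 2. TKO cells held more UMIs, so each cell was thinned to 5000 UMIs before shares of positive cells were taken. Deeper sequencing and more RNA per cell cannot be told apart here. Thinning left out 23 and 38 Ctrl keratinocytes and 4 and 7 TKO keratinocytes.

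The promoter windows of 4 of the genes are shown as 1 annotated start region for each. The genes have further starts, with 79 GENCODE transcripts for 1700108F19Rik, 12 for 1700030N03Rik, 3 for Gm41804 and 1 for Gm42653, and which start was used is not known from 3' counts. The window of Gm41804 lies outside its GENCODE gene body. Each runs from 250 bases before to 50 bases after a start site, 5′ to 3′ on the gene's strand, with CpG dinucleotides in capitals. CpG is the substrate of DNA methylation, a mark that often accompanies H3K9me3. 1700030N03Rik (GRCm39 chr19:3247654-3247953, minus strand) and 1700108F19Rik (chr14:76914758-76915057, plus strand) were the pair with the highest ratio of shared cells to expected cells in TKO replicate 1 and the next to highest in replicate 2. Gm41804 (chr19:8228022-8228321, plus strand) and Gm42653 (chr5:70718358-70718657, plus strand) were detected in the most cells.
1700030N03Rik: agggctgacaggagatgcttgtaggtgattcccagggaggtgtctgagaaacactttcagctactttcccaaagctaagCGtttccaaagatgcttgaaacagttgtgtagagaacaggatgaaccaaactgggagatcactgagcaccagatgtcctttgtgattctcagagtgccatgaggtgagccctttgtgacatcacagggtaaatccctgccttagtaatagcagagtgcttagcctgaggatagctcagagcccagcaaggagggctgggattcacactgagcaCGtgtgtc
1700108F19Rik: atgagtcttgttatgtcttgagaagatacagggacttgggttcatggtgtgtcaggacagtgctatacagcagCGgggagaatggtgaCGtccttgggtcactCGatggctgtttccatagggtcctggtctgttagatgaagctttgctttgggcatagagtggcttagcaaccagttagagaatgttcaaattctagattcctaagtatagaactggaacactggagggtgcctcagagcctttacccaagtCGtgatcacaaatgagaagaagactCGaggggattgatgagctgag
Gm41804: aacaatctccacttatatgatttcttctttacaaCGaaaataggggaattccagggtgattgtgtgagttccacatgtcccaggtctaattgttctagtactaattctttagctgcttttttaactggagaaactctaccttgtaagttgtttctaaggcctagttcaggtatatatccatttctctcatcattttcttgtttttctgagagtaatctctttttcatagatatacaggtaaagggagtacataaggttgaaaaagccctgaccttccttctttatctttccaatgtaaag
Gm42653: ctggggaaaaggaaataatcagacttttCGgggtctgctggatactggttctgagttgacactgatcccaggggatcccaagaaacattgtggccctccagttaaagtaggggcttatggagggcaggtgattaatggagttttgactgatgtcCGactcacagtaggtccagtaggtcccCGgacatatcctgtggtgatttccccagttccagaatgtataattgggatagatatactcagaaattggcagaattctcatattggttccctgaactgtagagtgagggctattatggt
RefSeq held a window for 6 of the 7 genes in a table built on GRCm38.p6, and each was placed on GRCm39 by a single exact match. The window of Gm42653 was read from the GRCm39 genome at its GENCODE start. The RefSeq start coincided with a GENCODE start for 1700030N03Rik, 1700108F19Rik and Gm1110, lay 961 bases from the nearest one for Gm41804 and 258 for Gm13274, and lay 126881 bases away for Gm11884.

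CpG counts in the 7 windows were 1 in Gm41804 and Gm11884, 2 in 1700030N03Rik, 3 in Gm13274 and Gm42653, 5 in 1700108F19Rik and 7 in Gm1110. The median over 32544 RefSeq promoter windows was 7, and over 11547 windows of lncRNA genes it was 4. At most 7 CpGs were held by 51.1% of all windows and 74.9% of lncRNA windows, so counts of this size were common. The letters TATAAA, searched on both strands, were in none of the 7 windows and in 13.6% of all windows. CCAAT was in 2 of the 7, with 1 match in Gm41804 and 3 in Gm42653, and in 37.4% of all windows. TGANTCA, the AP-1 letters, matched none of the 7 and 7.79% of all windows. CANNTG, the E-box letters, matched 5 of the 7, against 72.3% of all windows. Matches of these 4 motifs did not overlap each other in the 7 windows, while a CpG can lie inside an E-box match, as the last one printed for 1700030N03Rik does. Such matches are a description of letters only.

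The targeted genes were examined first. Setdb1 had 67.9 and 58.2 CPM (UMIs of the gene per 1000000 UMIs of summed keratinocytes) in Ctrl replicates 1 and 2 and 39.5 and 42.5 CPM in TKO. Both TKO libraries were below both Ctrl libraries. The log2 change was −0.64 (edgeR adjusted p 0.0464, SE 0.127, n = 2 per group). That call was kept under 3 of 11 alternatives, and leaving out either Ctrl library or TKO replicate 1 ended it; over all alternatives the change ran from −0.76 to −0.50, with edgeR or DESeq2 adjusted p from 0.00342 to 0.239. Suv39h1 had 24.4 and 25.3 CPM in Ctrl and 24.8 and 20 in TKO, and Suv39h2, deleted in both groups, had 14.0 and 17.1 against 22.6 and 16. Neither passed the test (−0.17 and 0.29, edgeR adjusted p 0.484 and 0.405). The kit reads the 3' ends of transcripts, and whether those ends lie in the deleted parts is not given in the sources used here, so these counts do not check the deletions.

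The 7 genes were close to silent in Ctrl keratinocytes and had 811 to 18502 UMIs per library in TKO. Gm42653 (chr5:70718608-70721446, plus strand) was counted at 43 and 45 UMIs in Ctrl, and at 18502 and 9694 in TKO. This was 0.708 ± 0.110 CPM against 267 ± 124 CPM (SD, n = 2), a log2 change of 8.53 (SE 0.429). Its TKO libraries differed by 1.98-fold, the widest gap among the 7 genes, and were still far above both Ctrl libraries. Gm41804 (chr19:8229233-8296536, plus strand) was counted at 62 and 50 UMIs in Ctrl, and at 6443 and 5208 in TKO, a log2 change of 6.92 (SE 0.174). The pseudogene Gm8184 lies inside it on the same strand, so part of its reads could have been assigned either way. Slc22a29, Gm7105 and Gm59345 overlap it on the other strand. How reads were assigned among these models was not tested.

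1700030N03Rik (chr19:3103071-3255592, minus strand) was counted at 10 and 4 UMIs in Ctrl, and at 4986 and 4045 in TKO, a log2 change of 9.53 (SE 0.279). Summed over libraries this was a 760-fold ratio, with an exact 95% counting interval of 453 to 1392. It overlaps the small gene Gm25431 on its own strand and 4 gene models on the other. Gm11884 (chr4:23260747-23392503, plus strand) was counted at 3 and 4 UMIs in Ctrl, and at 1650 and 2619 in TKO, a log2 change of 9.42 (SE 0.410). Its ratio of 719 had a counting interval of 349 to 1789, since only 7 Ctrl molecules were counted. It overlaps no other annotated gene. These 2 lncRNAs had the largest log2 changes of the 7, and their Ctrl levels rested on the fewest molecules together with Gm1110. Intervals of this kind cover counting error only.

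1700108F19Rik (chr14:76813186-76924754, plus strand) was counted at 19 and 21 UMIs in Ctrl, and at 1360 and 1427 in TKO, a log2 change of 6.33 (SE 0.201). Gm1110 (chr9:26790863-26834407, minus strand) was counted at 5 and 5 UMIs in Ctrl, and at 811 and 845 in TKO, a log2 change of 7.55 (SE 0.243). In CPM the TKO libraries differed by only 1.01-fold for 1700108F19Rik and less for Gm1110, at 15.5 and 15.6 CPM. 1700108F19Rik overlaps 1 gene model on its strand and 2 on the other, and Gm1110 overlaps none. Gm13274 (chr4:88640994-88675819, minus strand) was counted at 47 and 20 UMIs in Ctrl, and at 1691 and 1177 in TKO, a log2 change of 5.65 (SE 0.376). It had the smallest change of the 7 and overlaps 3 gene models on the opposite strand, Gm13271, Gm49884 and Gm70671.

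**Figure D1:**
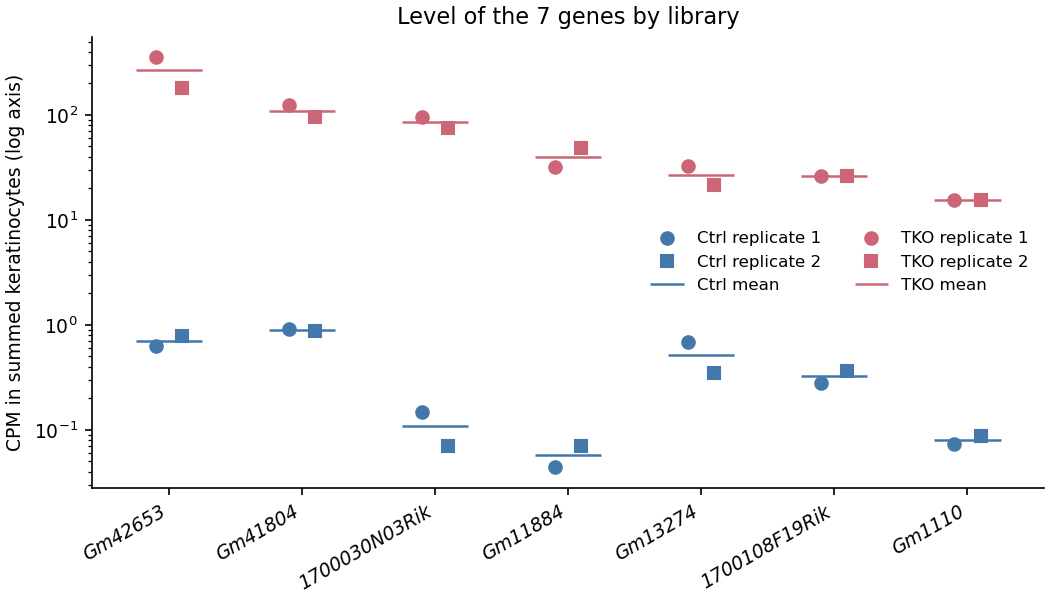
CPM of each gene in the summed keratinocytes of each library, on a log axis; circles are replicate 1, squares replicate 2, and horizontal lines group means (n = 2). All TKO points lie above all Ctrl points, with TKO means from 15.6 CPM (Gm1110) to 267 CPM (Gm42653) and Ctrl means below 1 CPM.

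The groups did not overlap for any of the 7 genes, and all 7 were called as raised, against 4.32% of the 19932 genes tested. All 7 passed the expression filter, which their TKO counts alone would meet. Nothing is read from these counts, since the same contrast chose the genes. Their median log2 change was 7.55, beside −0.022 over all genes tested. Ordered by log2 change among the 862 raised genes, they stood between 12th (1700030N03Rik) and 125th (Gm13274), so they were high in that list without being its top. Leaving out any 1 library kept the median between 7.45 and 7.65.

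The rise was spread over cells in different ways. With all UMIs kept, Gm42653 had a UMI in 76.5% and 73.1% of keratinocytes in TKO replicates 1 and 2. Gm41804 was in 51.7% and 42.6% and Gm13274 in 33.8% and 27.5%. The other 4 were in a minority of cells in both libraries, at most 21.7%. Gm1110 was found in 12.5% and 8.60% and 1700030N03Rik in 13.1% and 10.2%.

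For 1700030N03Rik, few cells held most molecules. The 10 highest cells carried 1910 of its 4986 UMIs in TKO replicate 1 (38.3%) and 1771 of 4045 in TKO replicate 2 (43.8%), and the highest single cells had 291 and 482 UMIs. At least 50% of its molecules came from 16 and 13 cells. Gm1110 was similarly concentrated, with 31.6% and 45.0% of UMIs in the 10 highest cells. Gm42653 was at the other end, with 5.76% and 5.61% of its UMIs in the 10 highest cells and 195 and 213 cells needed for 50%. Gm41804 (11.1% and 10.1%), Gm13274 (12.3% and 12.6%), Gm11884 (17.2% and 18.2%) and 1700108F19Rik (20.4% and 15.0%) lay between. The order of the 7 by share of positive cells was nearly the reverse of their order by concentration, and the measures are linked, since a gene in fewer cells has more of its UMIs in any 10 of them.

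**Figure D2:**
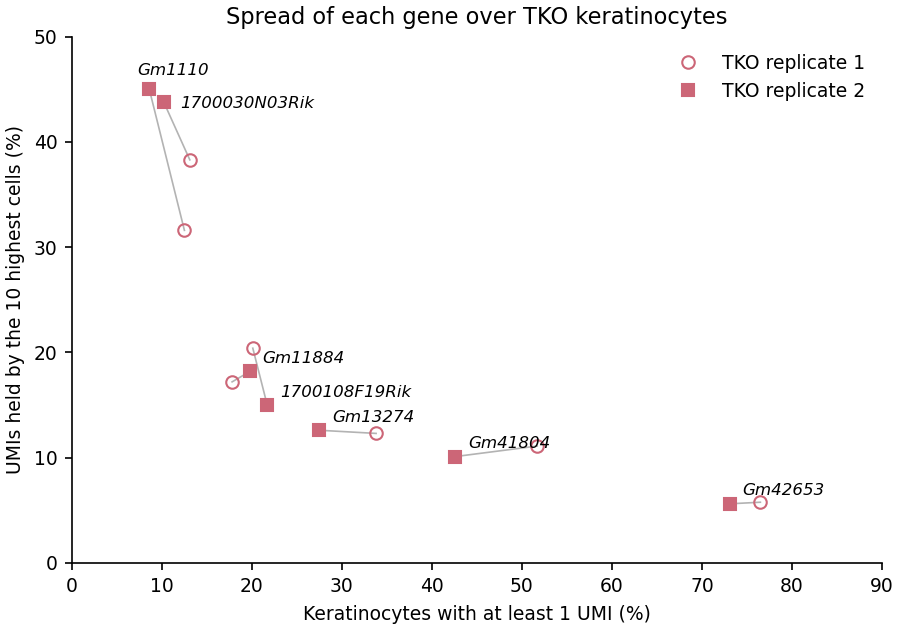
Share of TKO keratinocytes with at least 1 UMI of each gene (x axis, %, all UMIs kept) against the share of the gene's UMIs held by its 10 highest cells (y axis, %); open circles are TKO replicate 1, filled squares TKO replicate 2, joined for each gene. Gm1110 and 1700030N03Rik sit at the upper left, with 31.6% to 45.0% of UMIs in 10 cells, and Gm42653 at the lower right.

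At 5000 UMIs per cell, Gm42653 was detected in 55.0% of 1557 keratinocytes in TKO replicate 1 and in 42.4% of 1784 in TKO replicate 2. Gm41804 was in 27.3% and 21.7%, and the other 5 were in 2.75% to 11.8%. In Ctrl keratinocytes no gene exceeded 0.532% of cells. Immune-like cells, a class that should not express K14CreERT2, are given beside these shares for the same libraries. In TKO replicates 1 and 2 they had a UMI of Gm42653 in 2 of 282 and 1 of 418 cells (0.709% and 0.239%), and of Gm41804 in 14 and 12 cells (4.96% and 2.87%). Ctrl immune-like cells held 2.77 and 5.77 CPM of Gm41804, on 5 and 12 UMIs, more than Ctrl keratinocytes. Whether its counts in TKO immune-like cells are background was not tested. The other 5 genes were in 0% to 1.44% of immune-like cells, and 0 of 282 cells allows a share of up to 1.06% by the 3-count limit and 1.30% by the exact 95% interval. Their median depth before thinning was 20086 and 19407 UMIs, below that of TKO keratinocytes. Each of the 7 genes had a higher share in TKO keratinocytes than in immune-like cells of the same library, Gm1110 with the lowest at 4.69% and 2.75%.

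Levels were then compared between keratinocyte classes within TKO. The genes were chosen on the difference between TKO and Ctrl, but their values by class were also known when they were chosen, so the p-values below are not independent support. Classes were named basal-like, differentiating-like and hair follicle-like from markers, after clustering without these 7 genes and without the other genes that differed between genotypes. Differentiating-like cells carried less Gm1110 and Gm41804 than basal-like cells, and more Gm11884. In all, 1 gene of the 7 was called higher in differentiating-like cells, against 25.3% of the 17555 genes tested, and 4 were called lower, against 26.9%.

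Gm1110 had 5.58 CPM in differentiating-like and 17.0 CPM in basal-like cells of TKO replicate 1, and 2.60 against 21.4 CPM in replicate 2, a log2 difference of −2.12 (edgeR adjusted p 3.12e-04, SE 0.280). At 5000 UMIs it was found in 2 of 202 and 2 of 357 differentiating-like cells, against 5.56% and 3.53% of basal-like cells. Gm41804 had 64.5 against 131 CPM in replicate 1 and 25.9 against 128 CPM in replicate 2, a difference of −1.45 (edgeR adjusted p 9.88e-04, SE 0.236). Both differences were in the same direction in both TKO libraries and were called under all 11 alternatives run, over which the size ran from −5.18 (5000 UMIs per cell) to −1.48 for Gm1110 and from −2.08 to −0.90 for Gm41804, the smaller sizes without TKO replicate 2.

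Gm42653 was also lower in differentiating-like cells, with a log2 difference of −0.64 (edgeR adjusted p 0.0118, SE 0.168), with 264 against 393 CPM in replicate 1 and 105 against 223 CPM in replicate 2. For Gm13274 the difference was −0.45 (edgeR adjusted p 0.0124, SE 0.119), with 24.7 against 33.6 CPM and 14.6 against 25.9 CPM. Gm11884 went the other way, with 44.3 against 32.2 CPM in replicate 1 and 84.8 against 39.1 CPM in replicate 2, a log2 difference of 1.0 (edgeR adjusted p 0.00282, SE 0.197). These 3 calls were lost without TKO replicate 2, where the differences were −0.45 for Gm42653, −0.32 for Gm13274 and 0.58 for Gm11884. The fit then rests on 1 TKO library, assumed to vary like the others, and Gm13274 was also not called by DESeq2 or at 5000 UMIs per cell.

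1700108F19Rik and 1700030N03Rik did not pass the test, but were called under 4 and 5 of 11 alternatives, among them no expression filter, 5000 UMIs per cell and uncorrected components. 1700108F19Rik had 25.4 against 26.0 CPM in replicate 1 and 12.8 against 36.3 CPM in replicate 2, a difference of −0.60 (edgeR adjusted p 0.125, SE 0.300) that was −1.28 and called without TKO replicate 1. 1700030N03Rik had 199 CPM in differentiating-like and 70.7 CPM in basal-like cells of TKO replicate 1, but 88.6 against 101 CPM in replicate 2, a difference of 0.66 (edgeR adjusted p 0.345, SE 0.550). On TKO replicate 1 alone it was 1.61 and called, and on TKO replicate 2 alone it was 0.03. Its share of positive cells at 5000 UMIs was 17.8% and 10.4% in differentiating-like cells against 5.56% and 5.51% in basal-like cells. In TKO replicate 2 that order goes against the CPM, which there includes the basal-like cell with 482 UMIs, so no order between the classes is read for this gene.

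No gene of the 7 was called between hair follicle-like and basal-like cells by edgeR, nor by DESeq2, where edgeR called 9.95% of genes tested higher and 10.8% lower. At an unadjusted p under 0.05 edgeR gave 3 of the 7 and DESeq2 gave 2, and other settings called more. 1700108F19Rik (−0.74, edgeR adjusted p 0.113, SE 0.291) was called lower under 6 of 11 alternatives, and Gm42653 (−0.44, edgeR adjusted p 0.0964, SE 0.166) and 1700030N03Rik (−1.48, edgeR adjusted p 0.119, SE 0.597) under 5 each. 1700030N03Rik had 78.6 against 70.7 CPM in replicate 1 and 10.9 against 101 CPM in replicate 2, so its difference was 0.04 on TKO replicate 1 alone, and −3.33 and called on TKO replicate 2 alone. The other 4 genes had log2 differences from −0.43 to −0.17. Among them Gm1110 (−0.17) was called lower under 3 of 11 alternatives, at −1.52 with doublets kept, −1.61 with uncorrected components and −1.15 at Leiden resolution 0.5, and Gm11884 under 1, with no expression filter (−0.43). Gm41804, for example, had 148 and 107 CPM in hair follicle-like cells and 131 and 128 CPM in basal-like cells.

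Per gene, the order of the 3 classes by mean TKO level was basal-like, hair follicle-like, differentiating-like for Gm1110, Gm41804, Gm13274, Gm42653 and 1700108F19Rik, and differentiating-like, basal-like, hair follicle-like for Gm11884. Basal-like and hair follicle-like cells, neighbours in each of these orders, were not told apart by the test. For Gm1110, Gm41804 and Gm13274, hair follicle-like cells were above basal-like cells in TKO replicate 1 and below them in replicate 2. In replicate 1 they had 18.6 against 17.0, 148 against 131 and 34.7 against 33.6 CPM. 1700108F19Rik was nearly level in replicate 1, at 26.0, 25.3 and 25.4 CPM in basal-like, hair follicle-like and differentiating-like cells. Hair follicle-like and differentiating-like cells were not tested against each other. 1700030N03Rik was among the leading genes of one basal-like cluster, with 137 and 166 TKO and 246 and 203 Ctrl cells. The same held for one differentiating-like cluster, with 16 and 21 TKO and 57 and 25 Ctrl cells. It was not used to form either cluster. As Ctrl keratinocytes held only 10 and 4 UMIs of it, its place there rests on the TKO cells. In the first clustering, made before any genes were left out, it led a cluster with Gria3, Npffr1, Trp53inp1 and Abcb1b. That cluster drew 247 and 191 cells from TKO replicates 1 and 2, against 47 and 32 from Ctrl. A further cluster with it among its leading genes drew 15 and 24 from TKO, against 64 and 26 from Ctrl.

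**Figure D3:**
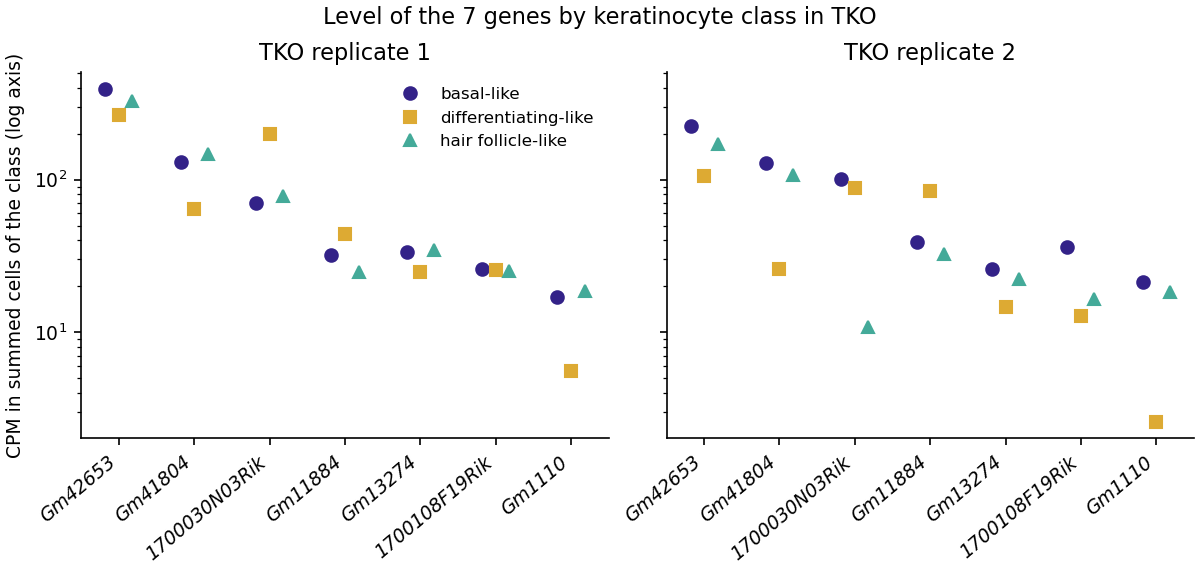
CPM of each gene in summed basal-like (circles), differentiating-like (squares) and hair follicle-like (triangles) cells of TKO replicates 1 and 2, on a shared log axis. Gm1110 and Gm41804 are lowest in differentiating-like cells in both libraries, Gm11884 is highest there in both, and 1700030N03Rik changes order between the libraries.

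Detection of the 7 genes was compared within single TKO keratinocytes at 5000 UMIs. Cells with none of the 7 made up 33.5% of TKO replicate 1 and 39.9% of replicate 2, where the product of the 7 shares, the value if each gene were detected independently, was 21.7% and 30.7%. At the other end, 13.9% (216 of 1557, exact 95% interval 12.2% to 15.7%) and 9.25% (165 of 1784, 7.94% to 10.7%) held at least 3 of the 7, against 7.94% and 5.17% for the product. Cells with exactly 1 were fewer than the product, at 29.4% and 31.4% against 44% and 43.5%. The highest number was 5 genes, in 9 and 12 cells. In Ctrl keratinocytes, 0 of 2818 and 0 of 2949 cells had at least 3, which allows shares of up to 0.131% and 0.125% by the exact 95% interval. Immune-like cells of the TKO libraries had none with at least 3 either, among 282 and 418.

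**Figure D4:**
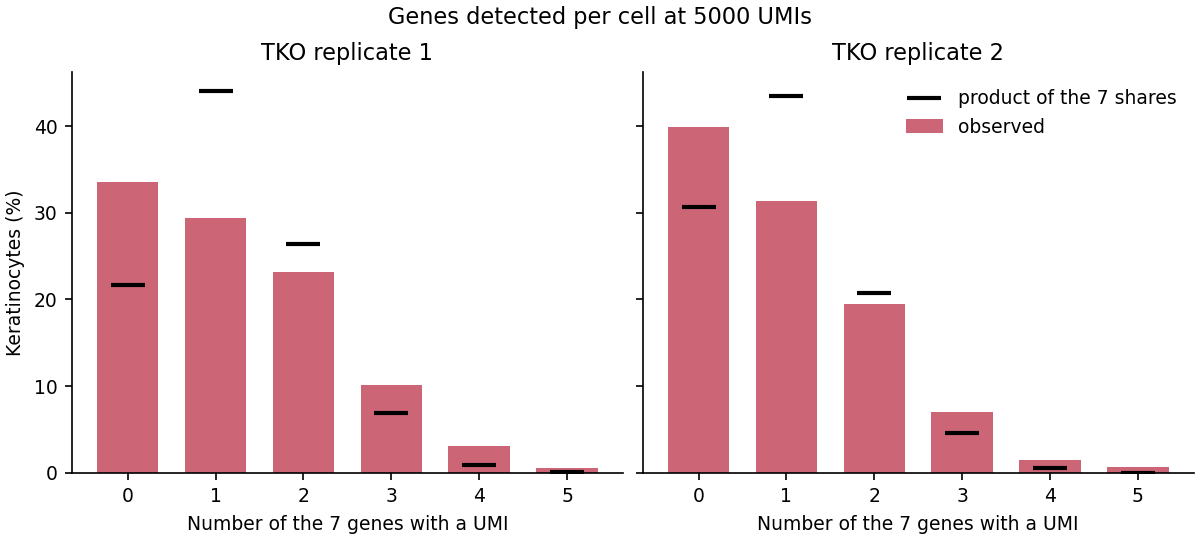
Number of the 7 genes with a UMI per TKO keratinocyte at 5000 UMIs (x axis) and the share of cells (y axis, %); bars are observed and black marks the product of the 7 shares. In both libraries bars exceed the marks at 0 and at 3 to 5 and fall below them at 1 and 2.

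All 21 pairs of genes were found together in more cells than the product of their shares in TKO replicate 1, and all 21 in TKO replicate 2. The mean ratio of observed to expected cells was 1.56 and 1.77, and single pairs ranged from 1.15 to 2.88 and from 1.04 to 3.56. 1700030N03Rik and 1700108F19Rik, which lie on different chromosomes, were in the same cell 28 times against 9.71 expected in replicate 1 and 26 times against 7.75 in replicate 2, ratios of 2.88 and 3.35. Gm41804 and Gm1110 followed in replicate 1, with 40 cells against 19.9 (2.01), and had 26 against 10.7 (2.44) in replicate 2. The widespread pair of Gm41804 and Gm42653 shared 343 cells against 234 expected (1.47) and 251 against 164 (1.53). Some pairs differed between the libraries: 1700108F19Rik with Gm1110 was at 1.68 and 3.56, on 10 and 13 cells. Cells of 1 library are not replicates, so these ratios carry no test.

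**Figure D5:**
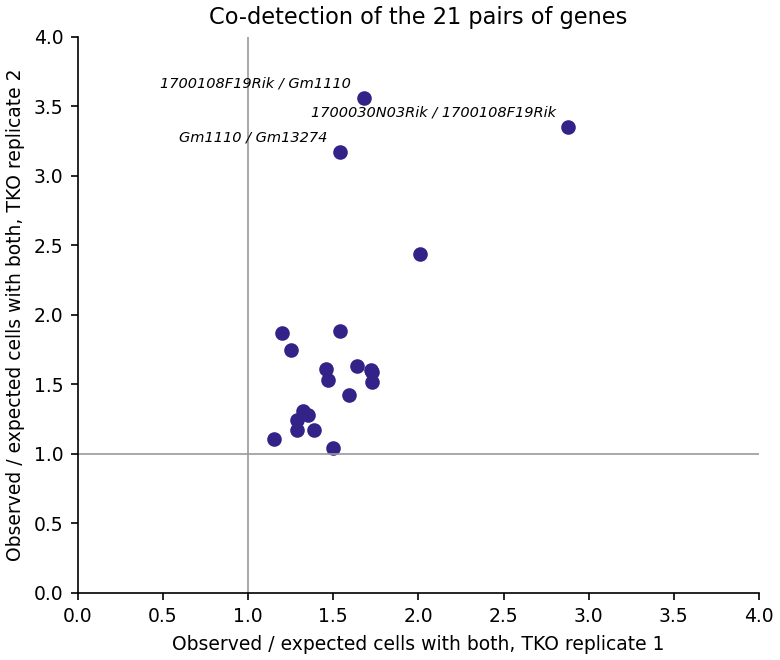
Ratio of observed to expected cells with both genes for each of the 21 pairs, TKO replicate 1 (x axis) against TKO replicate 2 (y axis); grey lines mark 1, the product of the shares. Every point lies above 1 on both axes, and the pair of 1700030N03Rik and 1700108F19Rik is high in both.

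Within classes the ratios were less even. In basal-like cells the means were 1.62 and 1.67, with 21 and 20 of the 21 pairs above 1 in TKO replicates 1 and 2. In hair follicle-like cells they were 1.73 and 2.07, with 20 of 21 above 1 in each. In differentiating-like cells, of which 202 and 357 were at depth, the means were 1.17 and 2.77 and the medians 1.24 and 1.71. There 14 and 17 of 21 pairs were above 1, and the lowest were at 0. Gm1110 was found in only 2 of these cells in each library, and all ratios of 0 were of its pairs. Its pairs also gave the highest ratios in replicate 2, up to 11.9, on 1 shared cell against 0.0840 expected. The mean of 2.77 rests on such pairs, so no order between the classes is read from these means. Cells with at least 3 of the genes were deeper before thinning than cells with none, with medians of 31783.5 and 29016 UMIs in replicate 1 and 30776 and 26795 in replicate 2. They were also more often basal-like, at 65.3% and 64.2%, against 61.7% and 43.3% of cells with none. The part of depth and class in the excess was otherwise not tested. Setdb1 transcript levels in cells with none and with at least 3 had overlapping intervals in both libraries. The level was 42.9 CPM in cells with none and 41.7 CPM in cells with at least 3 in TKO replicate 1, with exact Poisson 95% intervals of 35.3 to 51.6 and 30.4 to 55.8 that cover counting error only. In TKO replicate 2 it was 45.6 CPM (38.8 to 53.2) and 44.8 CPM (31.6 to 61.8).

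The genes whose detection was most like that of the 7 were ranked by the phi coefficient, a correlation of presence and absence across cells, with the presence of at least 2 of the 7. Over 9796 genes ranked, the lower of the 2 TKO libraries' phi had a median of −0.0116 and a 99th percentile of 0.0734. The 10 highest were Gm42047, Tnxa, Gm36551, Gm6288, Trp53inp1, Abcb1b, Npffr1, Gria3, Kif11 and 2610035D17Rik. The points share a library, and the values are a description. Gm42047 had phi 0.253 and 0.206, being detected in 62.2% and 59.5% of cells with at least 2 of the 7 and in 36.1% and 36.9% of the rest. Tnxa, a tenascin-X related gene, followed with 0.186 and 0.187.

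Of these 10, 9 were also called as raised in TKO keratinocytes, beside 4.47% of the 9796 genes ranked. Nothing is read from that count, since the ranking is by likeness to genes chosen for being raised in TKO, and Gm36551, Npffr1 and Tnxa had at most 9 UMIs per Ctrl library. Gm36551 was counted at 7 and 4 UMIs in Ctrl, and at 1302 and 1453 in TKO, a log2 change of 8.16 (edgeR adjusted p 6.13e-04, SE 0.244). Npffr1, a neuropeptide FF receptor, was counted at 1 and 3 UMIs in Ctrl, and at 1210 and 1313 in TKO (9.42, edgeR adjusted p 8.06e-04, SE 0.336). Gria3, a glutamate receptor subunit of neurons, went from 1.73 and 1.22 CPM to 73.8 and 46.2 CPM (5.31, edgeR adjusted p 0.00279, SE 0.306). Trp53inp1, a target of p53, changed less, from 50.6 and 53.5 CPM to 144 and 121 CPM (1.33, edgeR adjusted p 0.00503, SE 0.104). Kif11, a mitotic kinesin, did not pass the test (0.30, edgeR adjusted p 0.205, SE 0.122). Setdb1, Suv39h1 and Suv39h2 had phi values between −0.0241 and 0.0307 in both libraries.

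Genes near the 7 were examined next, a comparison of genes that the choice did not name. Of 80 other annotated genes within 100 kb of a gene body, 64 were in the matrices and 13 were expressed enough to be tested. Of these, 4 were called as raised (30.8%, beside 4.32% of all genes tested) and 0 as lowered, beside 2.61%. Of the 4, 3 had 0 to 5 UMIs per Ctrl library and met the expression filter through their TKO counts, and 1 of these 3, Gm8184, lies inside Gm41804, so the share of 13 is a description and nothing is read from it. DESeq2 called 5 as raised and 0 as lowered of 34 it tested, and at an unadjusted p under 0.05 edgeR had 5 of the 13 higher and 2 lower, and DESeq2 had 9 of the 34 higher and 1 lower. Within 500 kb, 7 of 56 tested genes were raised (12.5%) and 2 lowered. No neighbour of Gm11884 or Gm42653 was expressed enough to be tested in either window.

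Gm13284, a transcribed pseudogene that starts 6127 bases beyond Gm13274 and runs on the opposite strand, was counted at 1 and 0 UMIs in Ctrl, and at 233 and 213 in TKO. Its ratio over libraries was 526, with a counting interval of 93.9 to 20813 (edgeR adjusted p 0.00282). It met the expression filter through its TKO counts alone, so nothing is read from this p-value. Klhl9, an adaptor of a ubiquitin ligase that lies 292 bases from the other end of Gm13274, did not pass the test, with 57.0 and 52.1 CPM in Ctrl and 50.6 and 52.5 CPM in TKO (−0.10, edgeR adjusted p 0.619, SE 0.106). Gm8184, the pseudogene within Gm41804, was counted at 5 and 3 UMIs in Ctrl, and at 307 and 275 in TKO (6.36, edgeR adjusted p 0.00228, SE 0.321). Reads of the 2 overlapping models cannot be told apart with certainty. Gm8184 also met the expression filter through its TKO counts, so nothing is read from its p-value.

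The other 2 raised neighbours lie by 1700108F19Rik. The lncRNA 4930431P22Rik, 17373 bases away, had 0 UMIs in both Ctrl libraries and 17 and 26 in TKO. This was at least 16.9-fold higher at a floor of 3 UMIs over the group (edgeR adjusted p 0.0279). It met the expression filter through its TKO counts alone, so nothing is read from this p-value. Serp2, a stress-associated endoplasmic reticulum protein 18518 bases away, went from 1.10 and 1.14 CPM to 3.37 and 2.44 CPM (1.36, edgeR adjusted p 0.0421, SE 0.259). Leaving out either Ctrl library ended both calls, which left 2 neighbours called, and that of Serp2 was also lost without TKO replicate 1, with the replicate block, with no expression filter and at 5000 UMIs per cell. Tsc22d1, 67926 bases away, had 167 and 188 CPM in Ctrl and 154 and 141 CPM in TKO (−0.28, edgeR adjusted p 0.153, SE 0.0973). None of the 5 tested neighbours of Gm1110 and neither of the 2 of 1700030N03Rik was called.

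The machinery that writes, reads and erases H3K9 methylation was described from a list of 20 genes, all of which were tested. Of these, 1 was called as raised and 1, Setdb1, as lowered, beside 4.32% and 2.61% of all genes tested, so the counts were near the background. The median log2 change was 0.07. Atf7ip, a cofactor that stabilises Setdb1 in the nucleus, had 86.5 and 71.3 CPM in Ctrl and 207 and 247 CPM in TKO (log2 1.51, edgeR adjusted p 0.0103, SE 0.160). The call was kept under 10 of 11 alternatives and was lost without Ctrl replicate 2. The HP1 readers Cbx1, Cbx3 and Cbx5 had log2 values of 0.11, 0.25 and 0.03, the HUSH complex genes Tasor, Mphosph8 and Pphln1 of 0.18, −0.02 and 0.23, and the corepressor Trim28 of 0.17. None of these 7 passed the test.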

How the data were processed

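The authors deposited 1 Cell Ranger matrix for each of 4 libraries, holding UMI counts by gene and barcode with no normalization. Its headers name version 7.1.0 and the methods a different one. The build is GRCm39 per the labels. Whether reads in introns were counted, and with which annotation, is not given in the sources used here. The study removed contaminating cells by markers and aligned libraries with Harmony.

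The 7 genes, and the lists and tests used for them, were chosen with earlier results of these data known. Cells with at least 2000 genes and under 10.0% mitochondrial UMIs were kept (11221). The top-scoring 457 by Scrublet (0.8% per 1000 barcodes) were left out as doublets. Counts were clustered on 2000 variable genes, 30 components, Harmony and Leiden at resolution 1 (scanpy 1.11.5). Clusters named for other cell types, or under 1000 CPM over 6 keratins, were not counted as keratinocytes. Keratinocytes were clustered again without genes called between genotypes and without the 7 genes. The names need at least 3 detected markers; 409 keratinocytes stayed unnamed.

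Counts were summed per library, or per library and class (12 sums with library as a block), and tested by edgeR 4.0.16 quasi-likelihood (TMM, expression filter, R 4.3.3). Adjusted p-values are Benjamini-Hochberg over all genes tested, called under 0.05. DESeq2 was an alternative. Fits and the co-detection ratio were also tested in simulated data with known changes. The changes simulated for the fits were smaller than those of the 7 genes between TKO and Ctrl. Shares are of cells thinned to 5000 UMIs, with exact Clopper-Pearson intervals. Genes named beside the 7 were the called neighbours within 100 kb, the 10 highest by the lower phi among genes in at least 50 cells per TKO library, and the called machinery genes; other neighbours, other machinery genes and Setdb1, Suv39h1 and Suv39h2 were added for context. Positions are from GENCODE vM39; 744 gene IDs had no match.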

Additional observations from a re-analysis of the deposited data

How the results depend on the processing

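All 7 genes kept their direction and call between TKO and Ctrl in each of the 77 values from 11 alternatives, which is no sign of stability, since they were chosen on that difference. Of 77 values between differentiating-like and basal-like cells, 62 kept call and direction, 5 lost the call, 9 gained it and 1 reversed; of 77 between hair follicle-like and basal-like cells, 54 kept both, 20 gained a call and 3 reversed. The reversals were without TKO replicate 2: 1700108F19Rik at 0.09 between differentiating-like and basal-like cells, where fits without 1 library ran from −1.28 to 0.09, and between hair follicle-like and basal-like cells Gm1110 at 0.01 (−0.34 to 0.01), 1700030N03Rik at 0.04 (−3.33 to 0.04) and Gm41804 at 0.07 (−0.38 to 0.07). Causes were not tested.

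Genes changed in TKO keratinocytes numbered 1382, 2517 with DESeq2, 844 with no expression filter and 123 to 2113 with 1 library left out. Called neighbours within 100 kb numbered 4, 2 at 5000 UMIs per cell, 9 within 500 kb and 2 to 4 with a library left out. Called machinery genes numbered 2, and 1 with no expression filter, at 5000 UMIs per cell, with the replicate block, at a minimum of 3000 genes or when doublets were kept, and 0 to 2 with a library left out. The replicate numbers do not mark pairs in the labels, and deviations of same-numbered libraries correlated at −0.254 over 19932 genes. With the replicate block 963 genes were called, and with crossed numbers, an alternative chosen after seeing the data, 3501.

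Genes differing between differentiating-like and basal-like cells numbered 9169, 5887 at 5000 UMIs per cell and 5929 to 8158 with a library left out. Between hair follicle-like and basal-like cells they numbered 3645, 2349 at 5000 UMIs per cell and 1712 to 2611 with a library left out. Cells with at least 3 of the 7 genes averaged 11.6% over TKO libraries, 23.4% at 10000 UMIs, 39.8% with no thinning and 9.25% to 13.9% with a library left out, and the mean co-detection ratio averaged 1.67, 1.48, 1.40 and 1.56 to 1.77 in the same settings. Detection depends on depth in this way, so a gene not detected in a cell is not shown to be absent.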

Other observations

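Gm41804 was also counted in Ctrl cells other than keratinocytes. In Ctrl fibroblast-like cells it had 20 and 12 UMIs (12.2 and 8.18 CPM in replicates 1 and 2) and in Ctrl immune-like cells 5 and 12 UMIs (2.77 and 5.77 CPM), above its 0.909 and 0.873 CPM in Ctrl keratinocytes. In TKO replicates 1 and 2 it had 7.16 and 9.01 CPM in fibroblast-like cells and 8.43 and 5.32 CPM in immune-like cells. Gm42653, which had more UMIs than Gm41804 in TKO keratinocytes, had 2.20 and 1.90 CPM in fibroblast-like and 1.13 and 0.614 CPM in immune-like cells. These rest on at most 52 UMIs per library and carry no test.

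The remaining cells set apart from keratinocytes, a mix of muscle-like, melanocyte-like and unnamed clusters, also held these genes in TKO. In TKO replicates 1 and 2 they had 51.8 and 41.6 CPM of Gm41804, 44 and 55.4 CPM of Gm42653, 28.5 and 128 CPM of 1700030N03Rik, and 27.6 and 20.8 CPM of 1700108F19Rik, against 0 or 1 UMI of each per Ctrl library. The muscle-like and melanocyte-like clusters held 1509 and 4391 CPM of keratin transcripts, both above the 1000 CPM asked of keratinocyte clusters, so these values are not shown to come from cells other than keratinocytes.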
